A study of Caenorhabditis elegans with 4 samples.

Results

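The peaks described here are HDA-1 binding sites that stood alone in the genome of Caenorhabditis elegans, with no other HDA-1 peak for at least 10 kb on either side. They numbered 868 of 14199 peaks in the whole-series list (6.11%). They were chosen by position alone: in that list, the gap to the previous and the gap to the next peak of the chromosome both had to be 10000 bp or more. The first and last peak of each chromosome, 12 in all, were left out of the members and counted among the 13331 other peaks. Keeping them would have added 1 member.

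HDA-1 was mapped by chromatin immunoprecipitation and sequencing (ChIP-seq) in wild-type worms of strain N2 at the third larval stage (L3), grown at 20 °C as a population of both males and hermaphrodites. All libraries share this genotype, stage and temperature, and no mutant or treated group was compared. There were 2 ChIP libraries, replicates 1 and 2, made with a polyclonal antibody raised in rabbit against HDA-1 and purified by affinity, and 2 libraries of input DNA that were not analysed here. Whole larvae were used, so a peak can come from any of their tissues. The values are 3 peak lists in the authors' WS220 coordinates, 1 for each ChIP replicate (11762 and 9901 peaks) and the whole-series list, each peak with a start, an end and a score given by the authors. The score comes with no definition, and without read counts the depth behind a peak is unknown. The labels do not state whether separate cultures were used for the replicates, so a difference between these libraries may be technical.

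HDA-1 belongs to the class I histone deacetylases and is a relative of mammalian HDAC1 and HDAC2. It takes acetyl groups off histone tails and acts within multi-protein corepressor assemblies that other factors bring to DNA, among them the NuRD complex. Removal of acetyl groups generally goes with lower transcription, yet deacetylases of this class are also found at active promoters and enhancers. The worm genome is compact, with genes close together. Genes and regulatory elements are packed most closely in the middle of the autosomes, while the arms hold more repeats and more members of fast-evolving gene families.

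The gaps beside members varied widely. The smaller of a member's gaps had a median of 14462 bp, with quartiles of 11543 and 19074 bp and a highest value of 67507 bp. The larger gap had a median of 26152 bp and reached 138382 bp. Both gaps were 20 kb or more at 191 members and 30 kb or more at 43. Another 4286 peaks had a long gap on only 1 side, at the edge of a group of peaks or, for 1, at a chromosome end. Of the 14193 gaps in the list, 3011 (21.2%) were 10 kb or more, and they took up 69.0 Mb, or 68.8% of the 100.2 Mb spanned. The members themselves covered 257 kb, 5.52% of all bases under peaks.

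Peaks just inside and just outside the limit had overlapping widths and scores. The members just inside it lay on chromosome III at 5541949 to 5542255, with a smaller gap of 10001 bp, on II at 2018606 to 2018756, with 10016 bp, and on IV at 9884178 to 9884695, with 10019 bp. The peaks just outside all lay on V, at 8403230 to 8403528 and at 8413524 to 8413835, which face each other across 9995 bp, and at 13071120 to 13071269, with 9994 bp. Scores were 11.2, 3.01 and 33.0 inside and 3.81, 20.6 and 1.68 outside. Widths were 307, 151 and 518 bp inside and 299, 312 and 150 bp outside.

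Members were most frequent on V and IV. V held 204 of them (23.5%, exact 95% interval 20.7 to 26.5%) against 15.2% of the other peaks, and IV held 184 (21.2%, interval 18.5 to 24.1%) against 14.7%. All intervals reflect counting error alone, as if each peak were independent. X held 136 members, II 129, I 116 and III 99. As a share of each chromosome's own peaks, 9.16% of V and 8.58% of IV were isolated, against 5.41% of II, 5.12% of X, 4.71% of I and 4.26% of III. V carries large families of chemoreceptor genes, and IV carries most of the genes for piRNAs, the small RNAs that silence foreign sequence in the germ line. Position chose the members, so the number of peaks on a chromosome bears on how many are isolated. V and IV were also the chromosomes with the fewest peaks per Mb, 106 and 123 against 150 to 169 elsewhere. The place of the members is therefore a description and was given no test.

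Within chromosomes the arms differed from each other. The outer 25% of the length on either side counted as an arm, and the 50% between them as the centre. On the right arm of IV, 61 of 378 peaks were isolated (16.1%, interval 12.6 to 20.2%), against 31 of 666 on its left arm (4.65%, interval 3.18 to 6.54%). On V, the right arm had 58 of 398 (14.6%), the left arm 52 of 526 (9.89%) and the centre 94 of 1304 (7.21%). Chromosome II was the opposite of IV, with 46 of 443 on the left arm (10.4%) and 25 of 733 on the right (3.41%). On X the left arm and the centre were alike, at 6.23% and 6.25%, and the right arm had 18 of 765 (2.35%), the lowest share of the 18 segments. The shares on I ran only from 4.01% in the centre to 5.46% on the left arm. Here too the number of peaks bears on the share. The right arm of IV had 86.4 peaks per Mb and its left arm 152, and the right arm of V had 76.1. The left arm of II had 116 and its right arm 192, and the right arm of X had 173. On I the order was not kept, with 170 on the left arm and 162 in the centre. Over the 5 autosomes, 389 of 732 members lay in arms (53.1%, interval 49.5 to 56.8%) against 47.2% of the other autosomal peaks.

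**Figure D1:**
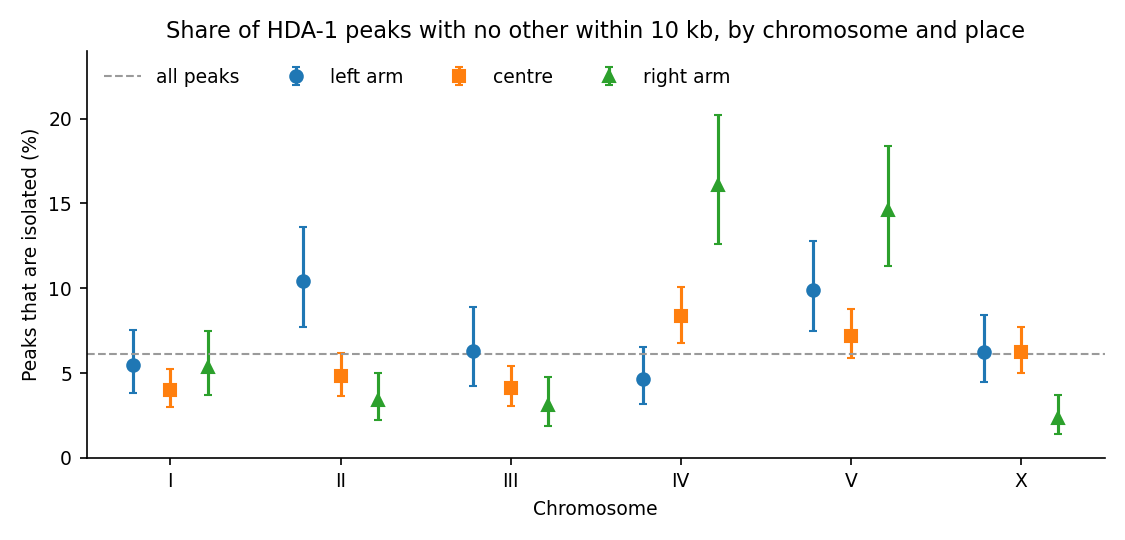
Percent of whole-series HDA-1 peaks that are isolated (vertical axis) in the left arm, centre and right arm of each chromosome (horizontal axis), with bars for exact 95% binomial intervals and a dashed line at the share over all peaks. The right arms of IV (16.1%) and V (14.6%) stand highest and the right arm of X (2.35%) lowest.

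Of the 868 members, 440 (50.7%) had another member as the next peak on at least 1 side. The rule itself gives each neighbour of a member 1 long gap, so this share is a description only. The longest unbroken run held 8. That run lay on IV from 15060070 to 15272152, where 212 kb held 8 peaks and no others. Its peaks scored 2.61 to 32.7 with a median of 18.0, and 4 were found in both replicates, 2 in replicate 1 only, 1 in replicate 2 only and 1 in neither. A run of 6 on V from 2907241 to 3100810 (194 kb) had 1 peak found in both replicates and 4 found in replicate 2 only, with scores of 1.32 to 40.8. A run of 6 on II from 4107147 to 4209358 (102 kb) had 1 in both and 3 in replicate 2 only. Over 97 full bins of 1 Mb, the median was 8 members. Bins with more peaks tended to hold fewer members, with a Spearman rho of -0.61. The fullest bin was IV from 16000001 to 17000000, with 19 of its 83 peaks isolated, followed by IV from 15000001 to 16000000 with 18 of 74. No full bin was without a member, so isolated sites occurred all along every chromosome. These runs and bins were chosen after their values were seen.

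In width, isolated peaks were slightly narrower than the others and had fewer very wide peaks. The median width was 237 bp, with quartiles of 179 and 362 bp, against 250 bp and quartiles of 184 and 389 bp. Peaks of 800 bp or more made up 14 of the 868 members (1.61%, interval 0.885 to 2.69%) and 565 of the 13331 others (4.24%, interval 3.90 to 4.59%). Peaks under 200 bp made up 35.7% of members and 32.2% of the others. The gap rule reads the same starts and ends as the width, and a wide site called in pieces cannot be isolated, so the widths were given no test. In the best-scoring 25% of the list the median was 369 bp for 208 members and 443 bp for 3342 others. In the lowest-scoring 25% it was 180 bp and 188 bp. The members' median was below that of the other peaks in 13 of the 18 chromosome segments.

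In score, isolated peaks were much like the others. The median was 9.04 with quartiles of 5.79 and 17.2, against 9.25 with quartiles of 5.50 and 17.5. A difference appeared at the top of the list. The best-scoring 10% of all peaks took in 66 members (7.60%, interval 5.93 to 9.57%) and 10.1% of the others (interval 9.64 to 10.7%), and the best-scoring 1% took in 4 members (0.461%, interval 0.126 to 1.18%) and 1.04% of the others. The lowest-scoring 10% took in 9.68% of members and 10.1% of the others. Wide peaks scored higher among both, with a Spearman rho between width and score of 0.58 over 868 members and 0.59 over the others. Both values come from the same call of the same peak.

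**Figure D2:**
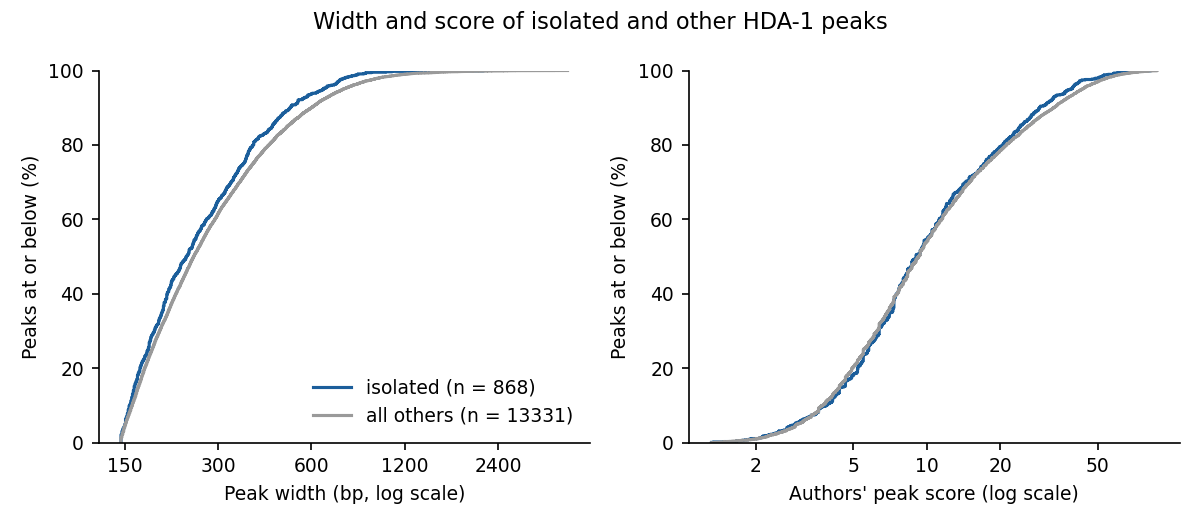
Cumulative percent of peaks (vertical axis) by width in bp (left) and by the authors' score (right), both on log scales, for 868 isolated peaks and 13331 others. The isolated peaks run slightly to the narrow side (median 237 against 250 bp), while the score curves nearly coincide below the best-scoring 10%.

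By direct overlap, isolated sites were found in both replicates nearly as often as the rest. A member was taken as found in a replicate where it overlapped a peak of that replicate's list by at least 1 bp. Of the 868 members, 342 were found in both (39.4%, interval 36.1 to 42.7%), where the share over all 14199 peaks was 41.9% and that of the others 42.0%. A further 239 (27.5%) were found in replicate 1 only, 192 (22.1%) in replicate 2 only and 95 (10.9%) in neither, where all peaks had 28.9%, 18.0% and 11.2%. Of these 4 shares, the replicate 2 only share of the members was the one whose interval, from 19.4% upward, lay clear of that of the other peaks, 17.0 to 18.3%. Weighted to the members' spread over score classes of 10% each, the other peaks' replicate 2 only share was 18.1%, and weighted to the 18 chromosome segments it was 18.3%. With the same weights the other peaks' share found in both was 41.4% and 41.7%. Counting each replicate by itself, 66.9% of members were found in replicate 1 (interval 63.7 to 70.1%) against 71.1% of the others (interval 70.3 to 71.8%), and 61.5% in replicate 2 (interval 58.2 to 64.8%) against 59.7%. Where a replicate peak within 500 bp was enough, 39.9% of members and 56.2% of the others were found in both. That wider definition also takes in a neighbouring peak, which by the rule a member does not have in the whole-series list. The whole-series list is not independent of the replicate lists, so these shares were given no test.

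Support of the members followed score closely. In the best-scoring 25% of the list 181 of 208 members were found in both replicates (87.0%, interval 81.7 to 91.3%), against 93.6% of the other peaks there (interval 92.7 to 94.4%). There 24 members (11.5%) were found in replicate 1 only, against 5.60% of the others. In the next 25% the share in both was 53.6% against 51.4%, in the one after it 15.7% against 18.8%, and in the lowest 2.93% against 4.25%. In the lowest 25% also, 34.6% of members were found in replicate 2 only, against 24.8% of the others, and 31.2% in replicate 1 only, against 40.4%. Of the 95 members found in neither replicate, 64 were in the lowest 25%, 27 in the one above and 4 in the one above that. They were narrow, with a median width of 160 bp, and had a median score of 4.81, against 350 bp and 18.6 for members found in both.

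Support also differed between the arms and the centres. In the autosome centres 167 of 343 members were found in both replicates (48.7%, interval 43.3 to 54.1%), and in the arms 131 of 389 (33.7%, interval 29.0 to 38.6%). The other peaks had 46.4% in the centres and 39.0% in the arms. In replicate 2 only, 13.1% of members were found in the centres and 30.1% in the arms, against 11.4% and 26.2% of the others. Members in the centres were wider, at a median of 271 bp against 216 bp in the arms, and scored higher, at 11.1 against 8.35. The other peaks had the same order, with 268 bp against 239 bp and scores of 9.77 against 9.04. The centres of I and III had the best supported members, with 61.2% of 49 and 60.0% of 50 found in both, above the other peaks there at 46.4% and 48.8%. The right arm of V went the other way, with 22.4% of 58 members found in both and 46.6% in replicate 2 only, against 35.9% and 25.9% of the other peaks. On the right arm of I, 62.5% of 32 members were found in replicate 1 only, against 24.3% of the others. Over the 18 segments, the share found in both was lower in members in 12 and the replicate 2 only share was higher in 13.

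The most remote members were found in both replicates least often of the 5 classes by gap. Members with a smaller gap of 10 to 20 kb were found in both replicates in 41.5% of 677 cases (interval 37.8 to 45.3%), close to the 44.0%, 39.9% and 37.8% of peaks with a nearest neighbour under 1 kb, at 1 to 5 kb and at 5 to 10 kb. At 20 kb or more the share was 31.9% of 191 (interval 25.4 to 39.1%). That interval overlapped those of every other class but the one under 1 kb (42.9 to 45.1%). The replicate 2 only share over the same 5 classes ran from 16.2% through 19.3%, 20.9% and 21.0% to 26.2%. Here too the last interval (20.1 to 33.0%) overlapped all others but that under 1 kb (15.3 to 17.0%). The share found in neither had no such order, at 10.0%, 13.0%, 12.7%, 10.8% and 11.5%. The median width was 263, 241, 225, 242 and 211 bp in that order, and the median score was 9.40, 9.04, 9.10, 9.30 and 8.41. Place moved with remoteness, since V held 14.5% of the peaks closest together and 34.6% of the most remote, and arms held 46.7% and 62.6% of the autosomal ones. Within the arms alone the share found in both was 36.2% of 287 members at 10 to 20 kb and 26.5% of 102 at 20 kb or more, and within the centres it was 50.4% of 282 and 41.0% of 61, with overlapping intervals in each. On X it was 32.4% of 108 and 32.1% of 28. The replicate 2 only share, for the same 2 classes of members, was 27.9% and 36.3% in the arms. It was 13.5% and 11.5% in the centres and 22.2% and 21.4% on X, again with overlapping intervals in each. The part of place and score in these shares was otherwise not tested.

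**Figure D3:**
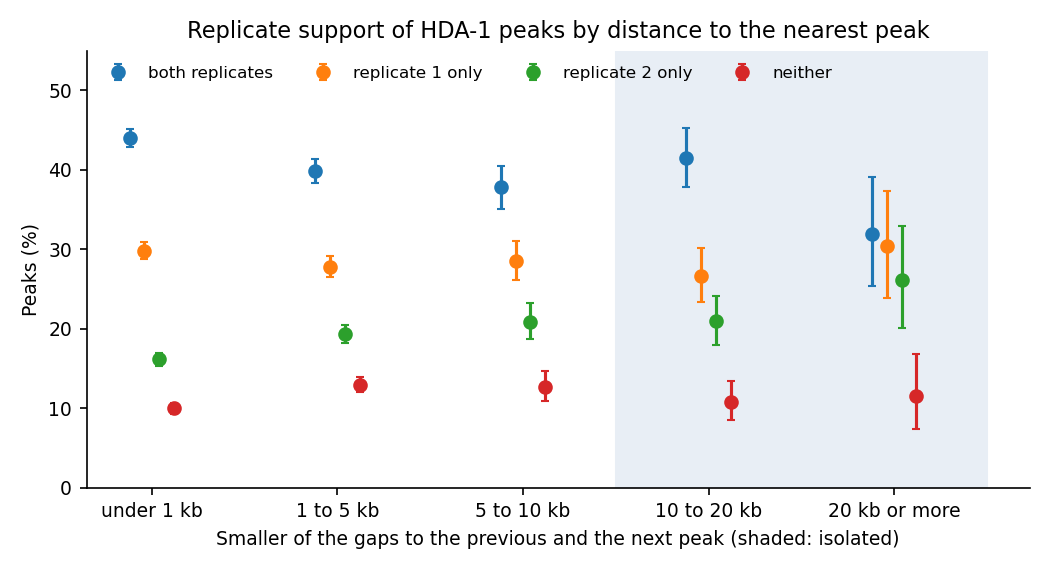
Percent of peaks of the whole-series list that were found in both replicates, in 1 replicate only or in neither (vertical axis) by the smaller of the gaps to the neighbouring peaks (horizontal axis), with bars for exact 95% binomial intervals and the isolated classes shaded. The share found in both runs from 44.0% under 1 kb to 31.9% at 20 kb or more, and the replicate 2 only share from 16.2% to 26.2%. The split by place is not drawn. Between the isolated classes the replicate 2 only share was higher at 20 kb or more in the autosome arms, with overlapping intervals. It was not higher in the centres or on X.

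The replicate lists were then read around the members, since a site alone in the whole-series list may have neighbours in a replicate. Within 10 kb of a member, outside the member itself, replicate 1 had at least 1 peak at 165 of the 868 (19.0%, interval 16.5 to 21.8%) and replicate 2 at 108 (12.4%, interval 10.3 to 14.8%). The same flanks of the other peaks held a replicate 1 peak in 94.6% of cases and a replicate 2 peak in 92.3%, which the rule largely fixes. The whole-series list does not hold 1678 of the replicate 1 peaks and 802 of the replicate 2 peaks. Of the 581 members found in replicate 1, 451 (77.6%) were isolated by that list's own spacing as well, and of the 534 found in replicate 2, 439 (82.2%). Of the 342 found in both, 229 (67.0%, interval 61.7 to 71.9%) were isolated in all 3 lists. Among the other peaks found in a replicate, 379 of 9475 were isolated by the spacing of replicate 1 and 551 of 7962 by that of replicate 2. Of the 5605 others found in both, 0.981% were isolated in both replicate lists. The rule largely fixes this contrast as well, because the whole-series list is not independent of the replicate lists. Few members were split, with 2 or more replicate 1 peaks under 11 of 581 (1.89%) and 2 or more replicate 2 peaks under 22 of 534 (4.12%). Splitting was uncommon among the other peaks found there too, at 3.15% and 7.08%.

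**Figure D4:**
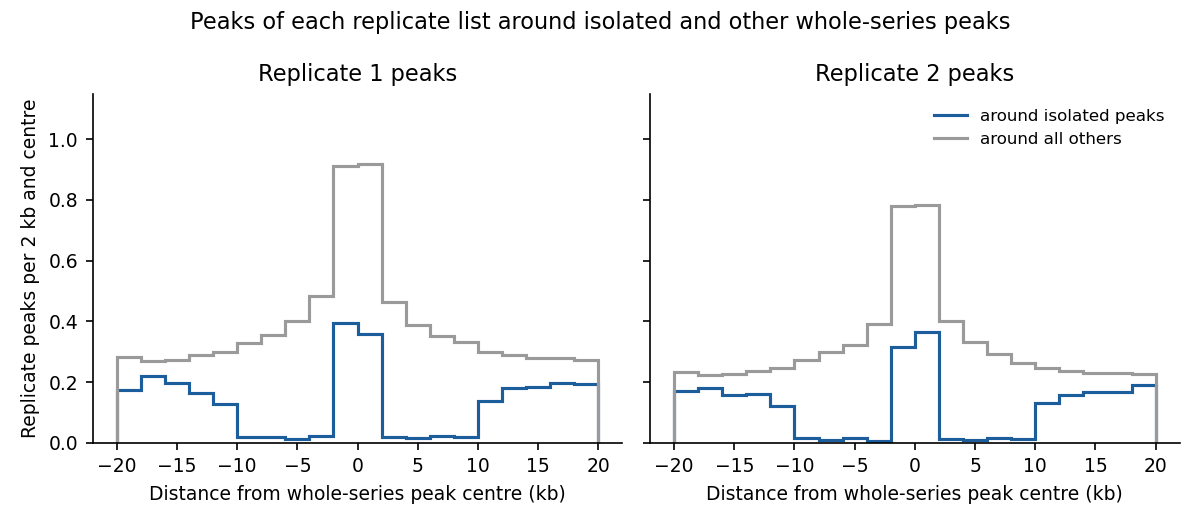
Number of replicate 1 (left) and replicate 2 (right) peaks per 2 kb and per whole-series peak centre (vertical axis) by distance from that centre in kb (horizontal axis), for isolated and other peaks. Between 2 and 10 kb from isolated peaks, where the rule leaves the whole-series list empty, the values lie between 0.00691 and 0.0219. From 10 to 20 kb they rise to 0.122 to 0.219, a level that the rule does not set. There they stay below the values around the other peaks, which are at least 0.268 in replicate 1 and 0.224 in replicate 2.

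At members found in both replicates, the calls were well aligned. Where a peak overlapped more than 1 peak of a replicate list, the one with the largest overlap was used. The centres of the replicate peaks lay a median of 36.2 bp apart, and 80.4% lay within 100 bp, against 47.0 bp and 73.5% at the 5605 other peaks found in both. The replicate 1 peak had a median width of 304 bp and the replicate 2 peak 246 bp, and the former was the wider at 66.1% of these members. At the others the values were 344 bp, 258 bp and 72.0%. The part of width in the alignment was not tested. The members' median position in the score order of each list was at 67.8% in replicate 1 and 60.6% in replicate 2, where 100% is the best score, against 70.5% and 64.1% for the others. Across the 342 pairs, which come from the same pair of libraries and are no replicates of each other, the score orders had a Spearman rho of 0.45, against 0.52 for the others. Members found in replicate 1 only sat in the middle of that list, at a median of 49.8%, against 42.5% for the other such peaks. Those found in replicate 2 only sat at 38.8%, as did the others.

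Recurrence across libraries was tested with isolation set in 1 replicate list and read in the other, which that rule does not use. By its own spacing, replicate 1 had 991 isolated peaks (8.43%), and 485 of them overlapped a replicate 2 peak (48.9%, interval 45.8 to 52.1%), against 5569 of the 10771 others (51.7%). Over all replicate 1 peaks the share was 51.5%. Fisher's exact test, two-sided, gave an odds ratio of 0.895 (95% interval 0.786 to 1.02) with an adjusted p of 0.0969 over the 2 directions, so this difference did not pass. Replicate 2 had 1121 isolated peaks (11.3%), and 695 of them overlapped a replicate 1 peak (62.0%, interval 59.1 to 64.8%), against 5764 of the 8780 others (65.6%). Over all replicate 2 peaks the share was 65.2%. Here the odds ratio was 0.854 (95% interval 0.751 to 0.971) with an adjusted p of 0.0330 by the same exact test, a difference of -3.65 percentage points (isolated minus others). Peaks and not cultures are the units of this test. Peaks close together are not independent of each other, and the p-values may therefore be too small.

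That difference depended on how a match was defined. With midpoints within 100 bp in place of any overlap, the log2 odds ratio turned from -0.23 to 0.40 (Fisher's exact test, adjusted p = 3.44e-05), so that isolated replicate 2 peaks recurred more often than the others. Where the overlap had to reach 50% of the shorter peak it was -0.16 and did not pass (adjusted p = 0.163 by the same exact test). A peak with neighbours also has more peaks of the other list close by, as the counts around the other peaks show, and the part of this in the overlap was not tested.

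Within classes of 25% of each list by score the direction was mixed, and these differences were given no test. In replicate 1, isolated peaks recurred less often than the others in the highest class (83.1% against 88.6%), the third (48.3% against 56.1%) and the second (30.6% against 36.3%), and more often in the lowest (29.5% against 26.3%). In replicate 2 they recurred more often in the highest class (95.9% against 93.2%) and the third (70.4% against 68.1%), and less often in the second (47.7% against 52.7%) and the lowest (41.2% against 47.8%). By chromosome, the isolated share was the lower on 4 of 6 in each direction. Chromosome V was lower in both, with 44.6% of 204 isolated replicate 1 peaks against 51.6% of the others, and 50.4% of 226 isolated replicate 2 peaks against 63.0%. Chromosome III was higher in both, at 56.5% against 55.4% and 72.6% against 64.6%.

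**Figure D5:**
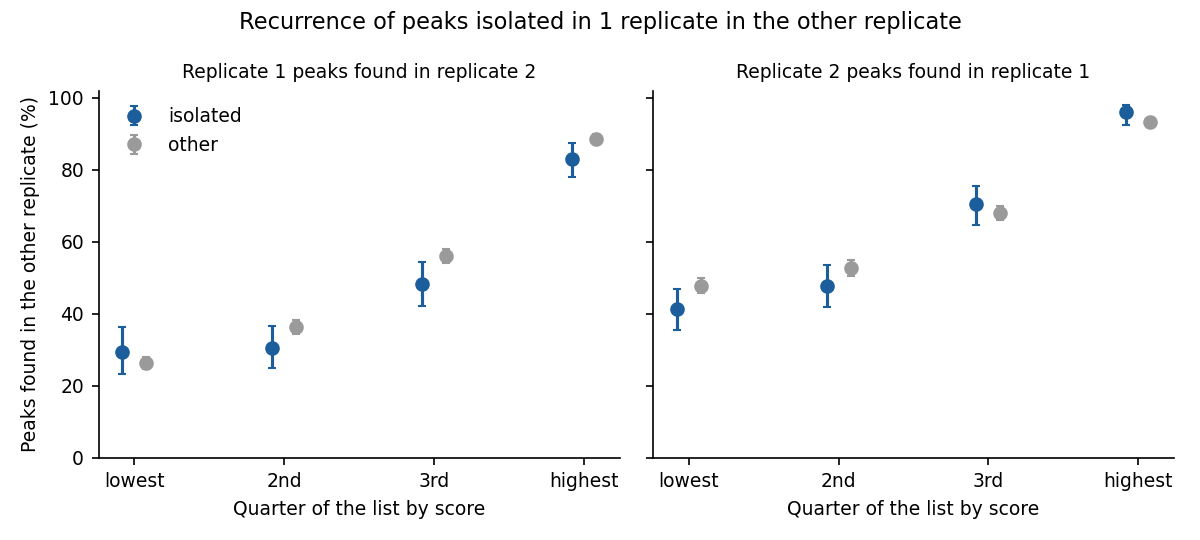
Percent of peaks of 1 replicate list found in the other (vertical axis) by score class of 25% of the list (horizontal axis), for peaks isolated in their own list and for the others, with bars for exact 95% binomial intervals. In replicate 2 the isolated peaks lie below the others in the lowest class (41.2% against 47.8%) and above them in the highest (95.9% against 93.2%).

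Of the 10 best-scoring members found in both replicates, 4 lay on the right arm of IV and 4 on II. These places held 61 and 129 of the 868 members. The first was IV at 13430189 to 13430538, 350 bp wide, with gaps of 14120 and 22820 bp. It scored 82.0 in the whole-series list, 80.3 in replicate 1 (rank 132) and 94.2 in replicate 2 (rank 15). Its replicate peaks were 336 and 341 bp wide, so its extent was much the same in each library.

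The next on IV, at 16995432 to 16995890, had gaps of 34557 and 14504 bp and a score of 67.6. It ranked 73 of 11762 in replicate 1 and 2842 of 9901 in replicate 2, so it stood much nearer the top of the first list. The member at 17249763 to 17250009 on IV was 247 bp wide with a score of 60.3 and ranked 226 and 580. The fourth on IV, at 14032492 to 14034644, was also the widest of the 868 members, at 2153 bp. Both replicates called it as 1 broad peak, of 2115 and 2027 bp, with scores of 74.3 and 71.7 (ranks 182 and 71). A gap of 52091 bp lay to its left and one of 12246 bp to its right.

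On II, the member at 254742 to 255534 had more than 30 kb clear on each side, with gaps of 32961 and 30210 bp. It scored 74.0 and ranked 84 in replicate 1 and 144 in replicate 2, but it was not isolated in either replicate's own list. The member at 3482290 to 3482830 scored 61.1 and ranked 88 and 410. Those at 4755707 to 4756018 and 6913324 to 6913689 scored 58.1 and 55.1, and the latter ranked 157 in replicate 1 and 1441 in replicate 2. The remaining sites were III at 269555 to 270015, with a score of 72.0 and ranks of 42 and 68, and I at 5261445 to 5261900, with a score of 58.2 and ranks of 280 and 2191. Of these 10, 7 were isolated in all 3 lists, where the share over all 342 members found in both was 67.0%. None lay on V or X, which held 63 and 44 of those 342.

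The other wide members were less uniform between replicates, by the replicate peak with the largest overlap. A site called in pieces would be measured by 1 piece alone, and this was not examined site by site. On I, the member at 9343189 to 9344657 spanned 1469 bp, with replicate peaks of 1139 and 659 bp, and ranked 626 and 88. Also on I, the member at 13600558 to 13601648 spanned 1091 bp and was found in replicate 1 only, where it ranked 455 with a score of 55.4. The peak on V at 5064678 to 5065717 was 1040 bp wide, with 907 bp in replicate 1 and 492 bp in replicate 2. The peak on IV at 8288976 to 8289913 was 938 bp wide, with 762 and 568 bp. In replicate 2's own list, the peaks at these members on V and IV were not isolated. At 9343189 to 9344657 on I, neither replicate peak was isolated in its list.

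Of the 5 most remote members, 4 were found in replicate 2 only. The share was 22.1% over all members and 18.0% over all peaks. Those of the 5 on V lay on its right arm. There, 13 of 22 members with both gaps of 20 kb or more (59.1%) were found in replicate 2 only. The most remote, on V at 17090006 to 17090224, had 67507 bp free of whole-series peaks to its left and 73480 bp to its right. It scored 8.18 and was found in replicate 2 only, at rank 4892. V also held the members at 16651911 to 16652105, with gaps of 56279 and 72537 bp, and at 17022064 to 17022498, with 55120 and 67507 bp. Both were found in replicate 2 only, at ranks 4035 and 3650, and the latter was not isolated in replicate 2's own list. That member is the left neighbour of the most remote one in the whole-series list, across their shared gap of 67507 bp. On IV, the member at 12928489 to 12928700 was found in replicate 2 only at rank 7302. The member on IV at 13635589 to 13635798 was the only one of the 5 found in both replicates, with gaps of 93561 and 59828 bp, a score of 18.4 and ranks of 6255 and 2058. The genes and sequences at these positions were not analysed here.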

How the data were processed

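Frozen, ground L3 worms were crosslinked with EGS and then with formaldehyde added, per the labels' protocols, so peaks can include indirect contacts. BWA and ce10 are named in the submitters' processing notes. Per the file headers, MACS gave the deposited peaks and WormBase WS220 their coordinates; no source used here gives its version, threshold or control. Each deposited score is the authors' own value for a peak and was used only within its list.

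Gaps, overlaps (at least 1 bp), intervals (exact binomial, 95%) and Fisher's exact tests with Benjamini-Hochberg adjustment over 2 directions (threshold 0.05) were computed with Python 3.11.15, NumPy 2.4.6, pandas 2.3.3 and SciPy 1.17.1, and figures with matplotlib 3.10.9. Odds ratio intervals are normal approximations on the log scale. Chromosome length was the largest peak end over the 3 lists. The code was checked on simulated lists. Named peaks were the 10 best-scoring members found in both replicates, the 5 widest, the 5 most remote and the 3 nearest each side of the limit. Members, comparisons and alternatives were chosen with earlier results of these data known. The weighted shares, deep-gap and segment comparisons and runs were added after these values were seen. Genes and sequences were not used, since the gene table given here has WBcel235 coordinates and no genome was given.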

Additional observations from a re-analysis of the deposited data

How the results depend on the processing

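Of 47 alternatives, 18 kept the value within its interval, its direction and side of the threshold or, for the number of members, within 1.5 times; 22 moved, 2 lost the call, 1 gained it and 4 reversed. A gap of 5000 bp gave 2149 members, 49.1% in arms (47.3% of the others) and 19.3% on V. A gap of 20000 bp gave 191 members, 31.9% found in both replicates (42.0% of the others), a median width of 211 bp (250 bp), 62.6% in arms (47.4%) and 34.6% on V. Merging peaks closer than 1000 bp first gave 48.6% in both (51.4% of the others) and 296 bp (329 bp). The better-scoring 50% of the list gave 68.9% in both (73.1% of the others), 318 bp (348 bp), 48.7% in arms (44.4%) and 17.4% on V. Midpoints within 100 bp gave 31.9% in both (31.0% of the others), so the order of members and others turned. Arms of 33.3% of the length on each side held 68.3% of the autosomal members, and the share of the others is not given here. With a single replicate required, 61.5% (replicate 2) to 66.9% (replicate 1) of members were found, against 59.7% and 71.1% of the others. With isolation set in a single replicate list, the median width was 212 to 237 bp, the share in arms 47.9% to 55.8% and on V 20.2% to 20.6%.

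For recurrence, log2 odds ratios by Fisher's exact test are given. From replicate 1 to 2 (-0.16), a gap of 5000 bp gave -0.18 and passed (adjusted p = 0.0101 by this exact test), and midpoints within 100 bp reversed it to 0.08. From replicate 2 to 1 (-0.23), a gap of 20000 bp gave -0.38 and overlap of 50% of the shorter peak -0.16, neither passing, while midpoints within 100 bp (0.40), the better-scoring 50% (0.12) and the 5000 best-scoring peaks of each list (0.07) reversed it. A gap of 20000 bp leaves fewer isolated peaks; the cause of the other changes was not tested. The lists hold no read counts, so depth limits every share to an unknown extent. No paired analysis was possible because it would set each ChIP library against the input of the same number, and no input values were analysed here.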
